A study of Mus musculus with 17 samples.

Results

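The comparison described here is high-fat diet against chow in brown fat that lacks acyl-CoA-binding protein in brown adipocytes. It used the 5 HFD knockout and 3 chow knockout libraries, 8 of the 17 libraries of the series, chosen by their labels. The series profiled RNA from brown adipose tissue (BAT) of C57BL/6J mice, a common inbred laboratory strain, in 4 groups of genotype and diet. Both groups compared carry the Acbp BAd-KO deletion, a conditional loss of Acbp (gene symbol Dbi) in brown adipocytes, and differ in diet. The chow group ate a standard rodent diet, and the HFD group was fed for 12 weeks a diet with 45% of its calories from fat. All mice were housed at 22 °C, which is below thermoneutrality for a mouse. The 4 chow and 5 HFD wild-type libraries come from mice of the same strain, housing and diets without the deletion, and serve only to ask where the diet effect differs. The sources used here give neither the driver of the deletion, nor the age of the mice, nor the hour of collection. Whether each library is its own animal is not stated, so every p describes variation among the libraries, which may be technical.

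Brown fat burns fatty acids to make heat through uncoupling protein 1, and noradrenaline drives it through beta-adrenergic receptors and cyclic AMP. It takes up circulating lipid, makes fatty acids itself and stores both in many small droplets. Acyl-CoA-binding protein binds acyl-CoA esters of long chains and carries them between the enzymes that make and use them. Sustained fat feeding is known to enlarge lipid droplets in brown fat, to lower its own lipid synthesis and to raise genes better known from white fat.

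Libraries held 47.2 to 49.7 megacounts (counts with the SI prefix mega) in chow knockout and 60.2 to 101 megacounts in HFD knockout. Genes encoded in mitochondrial DNA took 24.6% to 29.8% of the counts on chow and 22.2% to 24.1% on HFD. Levels of expression are CPM, a gene's counts for each megacount of its library, after TMM factors had corrected each total for composition, and these factors were 0.819 to 0.916 on chow and 1.02 to 1.10 on HFD. Library numbers in the labels fall into 4 runs. The chow knockout libraries belong to 1 run, HFD knockout 1 to another and HFD knockout 2 to 5 to yet another, so diet and run cannot be told apart in the knockout. Skeletal muscle markers summed to 176, 29.9 and 1045 CPM in chow knockout 2, 3 and 4, and to 39.4, 6908, 48.9, 1819 and 2092 CPM in HFD knockout 1 to 5. Hepatocyte markers summed to 23.7, 93.2 and 75.3 CPM on chow and to 72.5, 20.9, 10.2, 220 and 301 CPM on HFD. None of the 16 muscle and none of the 17 hepatocyte markers was called between diets, and the sums of the 2 groups overlap for both.

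**Figure D1:**
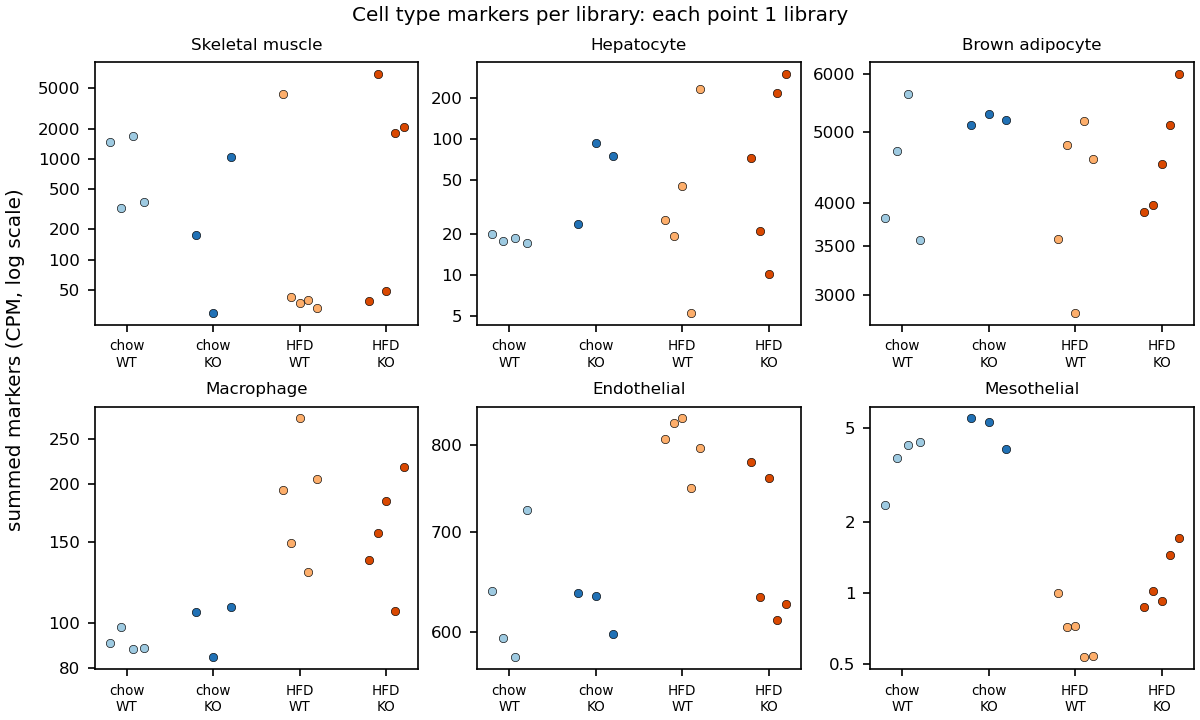
Summed CPM of the markers of 6 cell types in each of the 17 libraries (log axis, each point 1 library, KO the knockout, WT wild-type). Muscle markers in knockout libraries run from 29.9 to 6908 CPM with the diets overlapping, macrophage markers from 84.3 to 108 CPM on chow and 106 to 218 CPM on HFD, and the mesothelial sum, carried by Lrrn4 with the other 4 markers at or near 0, from 4.10 to 5.50 CPM on chow and 0.870 to 1.72 CPM on HFD.

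Many transcripts in knockout brown fat differed between high-fat diet and chow, in both directions. Of 17717 genes tested, 2260 were higher on HFD and 2319 lower at an adjusted p of 0.05 or less (edgeR quasi-likelihood F test, Benjamini-Hochberg), together 25.8% of the genes tested. Changes of at least 2-fold were mostly rises, with 888 genes higher and 307 lower. The genes with the largest rises included the hormone leptin, the calcium release channel Ryr2, heat shock protein Hspa1b and the imprinted gene Mest. Large drops were seen in the lactate receptor Hcar1, the cAMP-induced receptor Nr4a3 and the transcription factor Irf4. For 31.6% of all genes tested, and 89.0% of those called, the 5 HFD and 3 chow libraries did not overlap. The genes named for the largest rises and drops were chosen among genes without overlap. Separate groups are therefore no added support for them. With HFD knockout 2, 4 and 5 left out, the HFD libraries richest in muscle transcripts, 1787 genes were higher and 1429 lower. Scaling by library totals alone, without the composition factors, moved the median log2 fold change of all genes from 0.03 to 0.30 and turned the split into 5322 higher and 553 lower, so 90.6% of calls were then rises against 49.4%. In bulk tissue, fewer cells of a type and less RNA per cell cannot be told apart.

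A term for the run of library numbers within HFD, in which HFD knockout 1 alone links the runs, left 741 genes higher and 571 lower. With it the calls among the lists described next fell to 3 lower for beta-adrenergic, 4 for lipogenic and 6 for cholesterol genes, and to 4 higher for heat shock, 3 for macrophage and 6 for mitotic genes. The calls of Acsl4, Acss2, Angpt2, B3galt2, C1qc, Cfd, Dbi, Dnaja1, Fgf21, Hmox1, Hspa1b, Lrrc8d, Mycl, Npas2, Nr4a2, Nrg4, Plin3, Ppargc1a, Slc27a2 and Ucp3 were lost with this term. Those of Acsl4, Nrg4 and Slc3a2 were lost with library totals alone. With the replicate block 7 lipogenic genes were lower, and 6 chemokine, 12 mitotic and 4 insulin signalling genes higher. Leaving out 1 chow library also lowered some counts of list members by over 1.5 times. Without chow knockout 2, 6 lipogenic, 11 cholesterol, 4 complex I and 2 mitochondrial DNA genes were lower, and 5 lipid uptake, 5 chemokine, 6 protease and 3 insulin signalling genes were higher. Without chow knockout 3, 12 proteasome genes were lower, and 12 mitotic, 5 lipid uptake, 4 chemokine, 5 collagen, 6 protease, 3 stress response and 3 insulin signalling genes were higher. Without chow knockout 4, 4 lipid uptake and 4 stress response genes were higher. Without HFD knockout 3, 5 lipid uptake and 6 chemokine genes were higher, and without the liver-rich libraries HFD knockout 4 and 5, 4 mitochondrial DNA genes were lower.

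Leptin, the hormone by which fat signals its stores, rose most among the adipokines. Lep was 8.35, 3.56 and 2.40 CPM in chow knockout 2, 3 and 4, and 258, 197, 196, 93.1 and 25.6 CPM in HFD knockout 1 to 5. Every HFD library was above every chow library, and HFD knockout 5 was the lowest of its group. The log2 fold change was 5.02 ± 0.74 (SE, adjusted p = 0.000209, edgeR), a 32.3-fold rise. Mest, a lipid-droplet-associated enzyme that marks expanding fat, was 0.909, 0.694 and 1.07 CPM on chow and 17.1, 7.68, 15.95, 4.84 and 5.34 CPM on HFD. Its groups did not overlap and its log2 fold change was 3.51 ± 0.80 (adjusted p = 0.00487, edgeR), a call lost in limma-voom (adjusted p = 0.122). Npr3, the clearance receptor that removes natriuretic peptides, was 75.4, 68.6 and 43.9 CPM on chow and 583, 510, 519, 324 and 217 CPM on HFD, with no overlap and a log2 fold change of 2.78 ± 0.28. Other members that rose were Nnat (3.39), Hoxc8 (1.43), Apln (0.87), Cav2 (0.56) and Cav1 (0.41, all log2). Cfd, the complement protease adipsin, went the other way with 339, 259 and 556 CPM on chow and 84.3, 77.8, 29.8, 129 and 109 CPM on HFD. The groups did not overlap and its log2 fold change was -2.16 ± 0.40 (adjusted p = 0.00126, edgeR). Adiponectin (Adipoq) fell by 0.41 and Igf1 fell by 1.36 on the log2 scale. Of the 22 adipokine and white fat genes tested, 10 rose, 3 fell and 9 did not pass, with a median log2 fold change of 0.57 against 0.03 over all genes tested. Over all genes tested, 12.8% were called higher and 13.1% lower.

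Outside the adipokines, and at a mean of 5 CPM or more in the higher group, the largest fitted rises were those of Car12 and Ryr2. Ryr2 is a channel that releases calcium from the endoplasmic reticulum and is best known from heart. Ryr2 was 0.393, 0.463 and 0.582 CPM on chow and 28.3, 24.5, 48.0, 21.7 and 23.0 CPM on HFD, a log2 fold change of 5.92 ± 0.46 (adjusted p = 9.42e-07, edgeR). Its highest library, HFD knockout 3, had a skeletal muscle marker sum of 48.9 CPM, within the range of the chow libraries. Which cells carry the Ryr2 transcripts was not tested. Car12, a membrane carbonic anhydrase, had 0, 0 and 1 counts on chow and 364, 480, 768, 188 and 173 counts on HFD. No fold is given for Car12, because 1 chow count sets no stable level, and its call was lost in limma-voom (highest adjusted p over the alternatives 0.0792). Ighm, the heavy chain of immunoglobulin M, was 3.44, 2.96 and 3.58 CPM on chow and 103, 119, 58.5, 64.5 and 50.6 CPM on HFD. That is a log2 fold change of 4.57 ± 0.41 with no overlap, while no member of the list of T and B lymphocyte markers was called and their sums overlapped, at 2.702 to 3.72 CPM on chow and 1.42 to 8.69 CPM on HFD. Kcnj15, a potassium channel, rose 15.6-fold, from 1.25, 0.856 and 1.303 CPM to 17.2, 24.1, 15.8, 14.96 and 17.04 CPM. The HFD libraries lay close together apart from HFD knockout 2, and the groups did not overlap. The transporter Slc6a13, which carries GABA and taurine, rose by 4.40 on the log2 scale, the synuclein family member Sncg by 3.68 and Slc15a5 by 3.34. A row named 7SK, 1 of 6 near-identical copies among which reads may be shared, also rose, from 8.40, 2.18 and 0.233 CPM to 65.3 to 96.8 CPM.

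**Figure D2:**
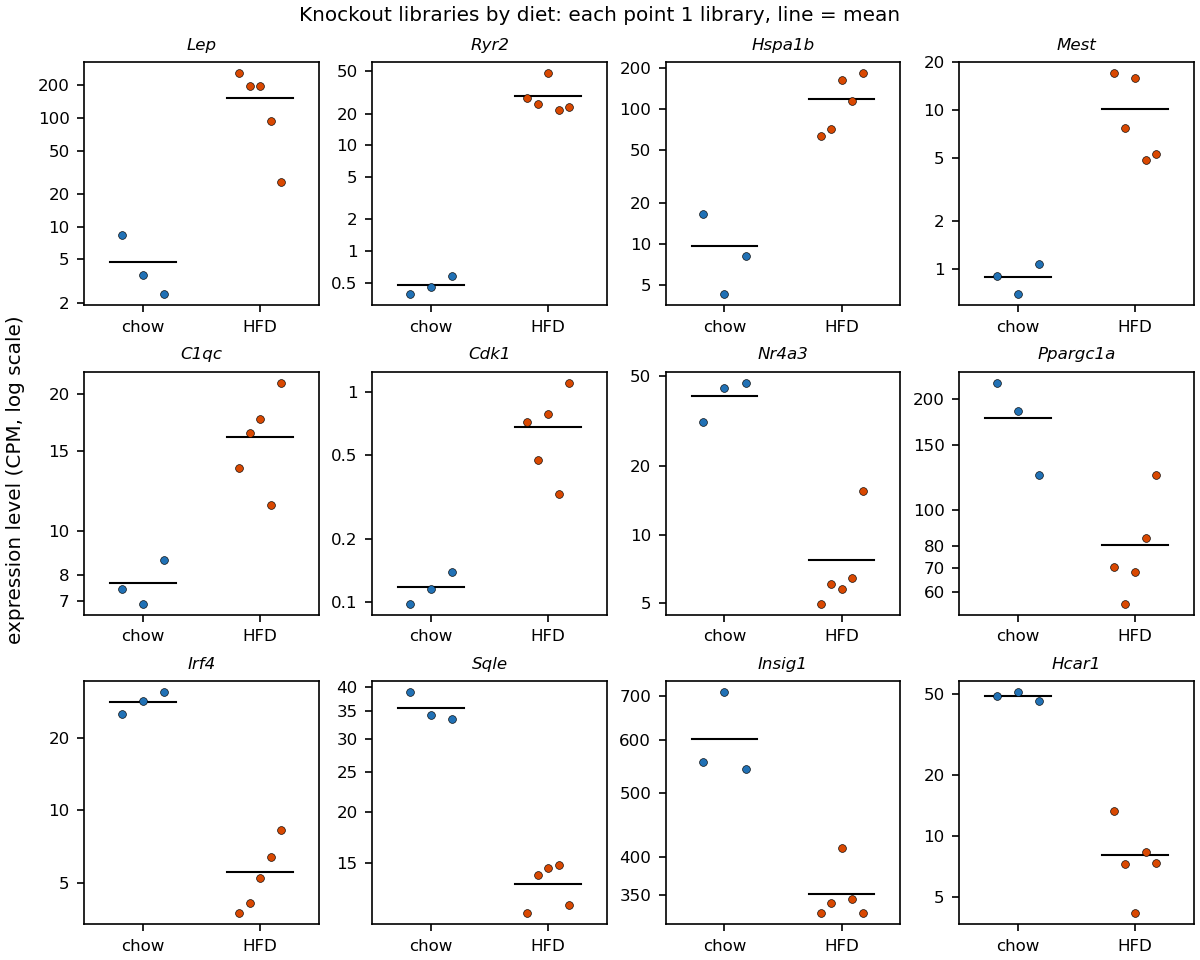
Expression level (CPM, log axis) of 12 genes in the 3 chow and 5 HFD knockout libraries, each point 1 library and each line a group mean. The diets do not overlap in any of the 12 panels, as in 89.0% of all genes called and 31.6% of all genes tested. Lack of overlap was a condition for naming the largest rises and drops. Lep spreads most within HFD, from 25.6 to 258 CPM.

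Transcripts of beta-adrenergic and cAMP signalling genes showed drops and no rises among those called, and signalling itself was not measured. Of 26 genes tested, 14 fell, none rose and 12 did not pass, with a median log2 fold change of -0.33 that stayed below 0 (-0.06) with library totals alone, when 7 were lower and 4 higher. The NR4A receptors, orphan nuclear receptors induced by cAMP, fell together. Nr4a3 was 31.3, 44.2 and 46.5 CPM on chow and 4.98, 6.06, 5.77, 6.47 and 15.5 CPM on HFD, a log2 fold change of -2.38 ± 0.36 (adjusted p = 0.000243, edgeR). Nr4a2 was 57.9, 29.7 and 17.3 CPM on chow and 8.43, 8.38, 8.62, 8.37 and 7.73 CPM on HFD, a log2 fold change of -2.07 ± 0.35. The chow libraries of Nr4a2 spread widely, the HFD libraries hardly at all, and neither gene's groups overlapped. Nr4a1 fell by 1.69, the G-protein regulator Rgs2 by 1.63, the cAMP-induced kinase Sik1 by 1.27 and the adenylyl cyclase Adcy3 by 0.92 (log2). Pde4d, a phosphodiesterase that breaks down cAMP, was 234, 241 and 237 CPM on chow and 106, 107, 92.8, 114 and 109 CPM on HFD, a log2 fold change of -1.17 ± 0.12 (adjusted p = 1.31e-05, edgeR) with tight, separate groups. The receptor genes Adrb3 (0.44, adjusted p = 0.0766) and Adrb1 (0.33, log2) did not pass. Without the 3 muscle-rich HFD libraries 9 of the 26 were lower.

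Among the genes of heat production, the coactivator Ppargc1a fell and Ucp1 did not pass the test. Ucp1, the proton channel of heat production, was 3074, 3187 and 3042 CPM on chow and 2391, 2327, 2832, 3157 and 4055 CPM on HFD. The HFD libraries lay on both sides of the chow libraries, and the log2 fold change was -0.07 ± 0.24 (adjusted p = 0.852, edgeR), with its sign reversed at 0.20 when library totals alone were used. Ppargc1a, which drives mitochondrial gene expression, was 221, 186 and 125 CPM on chow and 70.3, 55.9, 68.2, 84.0 and 124 CPM on HFD. HFD knockout 5 came up to the lowest chow library without crossing it, and the log2 fold change was -1.13 ± 0.27 (adjusted p = 0.00677, edgeR), a call lost with the run term (adjusted p = 0.111). In wild-type the same diet gave 0.15 for Ppargc1a, and the difference between genotypes of -1.28 ± 0.38 did not pass (adjusted p = 0.229, edgeR). Dio2, which activates thyroid hormone, was 325, 345 and 397 CPM on chow and 171, 163, 109, 188 and 265 CPM on HFD. Although its groups did not overlap, the log2 fold change of -0.99 ± 0.41 missed the threshold (adjusted p = 0.0848, edgeR), and it passed only in the fit of the 8 knockout libraries alone. Cidea, a lipid droplet protein of brown fat, had a log2 fold change of -0.34 ± 0.14 (adjusted p = 0.0734, edgeR). It passed with DESeq2 and in the fit of the 8 knockout libraries. Elovl3, an elongase of brown fat, had a log2 fold change of 0.58 ± 0.31 (adjusted p = 0.189, edgeR) and passed with library totals alone. Kcnk3, a potassium channel of brown adipocytes, fell from 449, 527 and 476 CPM to 155, 171, 178, 266 and 293 CPM, and the acyl-CoA synthetase Slc27a2 fell by 1.37 (log2). Bmp8b, a signal that raises heat production, rose from a low level of 0.0737, 0.0694 and 0.0465 CPM to 0.693, 0.765, 1.57, 0.866 and 1.86 CPM. In all, 4 of 25 members fell, 1 rose and 20 did not pass. Calls in either direction were 20% of these members, against 25.8% of all genes tested. With library totals alone 3 were lower and 7 higher and their median of -0.09 became 0.17.

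Genes that make fatty acids and cholesterol fell as groups. Of 26 genes of fatty acid and triglyceride synthesis 12 fell and none rose, with a median log2 fold change of -0.54, and of 26 genes of cholesterol synthesis and its control 17 fell and none rose, with a median of -0.55. Both medians stayed below 0 with library totals alone, at -0.27 and -0.28, although 2 and 4 members were then called higher. Scd3, a stearoyl-CoA desaturase, was 2.97, 5.07 and 3.47 CPM on chow and 0.339, 0.260, 0.512, 0.245 and 0.265 CPM on HFD, a log2 fold change of -3.56 ± 0.25 (adjusted p = 5.04e-07, edgeR). Elovl5, which elongates polyunsaturated fatty acids, was 242, 281 and 253 CPM on chow and 67.1, 66.2, 71.1, 78.5 and 81.0 CPM on HFD, a log2 fold change of -1.83 ± 0.14. Neither gene's groups overlapped. Acacb (-0.99), Acss2 (-0.87), Me1 (-0.71), Acaca (-0.70), Elovl6 (-0.70), Fasn (-0.55) and Srebf1 (-0.53) also fell, the last encoding the factor that drives lipid synthesis. Scd1, the main desaturase of fat, did not pass at -0.31 ± 0.16 (adjusted p = 0.171, edgeR), although its chow libraries at 80852 to 95005 CPM all lay above its HFD libraries at 53531 to 79784 CPM. In the sterol pathway, Sqle, which makes squalene epoxide, was 38.9, 34.2 and 33.6 CPM on chow and 11.4, 14.02, 14.6, 14.9 and 11.9 CPM on HFD, a log2 fold change of -1.41 ± 0.15 (adjusted p = 1.13e-05, edgeR). Acat2 (-0.91), Idi1 (-0.83), Cyp51 (-0.82), Fdps (-0.78) and Fdft1 (-0.75) fell too. Hmgcs1 (0.05) did not pass. Without the 3 muscle-rich HFD libraries, 7 lipogenic and 10 cholesterol genes were called lower, with medians of -0.54 in both lists.

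Lipid uptake and droplet genes moved in both directions. Of 24 tested, 10 rose, 4 fell and 10 did not pass, with a median of 0.27 (log2), against 15 higher and 2 lower with library totals alone. Fabp3, a fatty acid carrier of the cytosol, was 122, 126 and 87.7 CPM on chow and 355, 401, 463, 454 and 457 CPM on HFD, a log2 fold change of 1.93 ± 0.18 (adjusted p = 5.13e-06, edgeR). Cd36, the fatty acid uptake protein, was 1019, 1049 and 1038 CPM on chow and 1499, 1337, 1322, 1344 and 1335 CPM on HFD. HFD knockout 1 stood above 4 close neighbours, and the groups did not overlap. The droplet coats Plin2 (0.40), Plin3 (0.50) and Plin5 (0.50) rose. Lipoprotein lipase (Lpl, -0.70), the lipase Pnpla2 (-0.36) and its coactivator Abhd5 (-0.91) fell. Abhd5 was 117, 132 and 132 CPM on chow and 61.7, 61.8, 58.5, 73.5 and 83.1 CPM on HFD, without overlap.

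Genes whose proteins bind, make or split acyl-CoA, the ligand of the deleted protein, moved in both directions. Of 28 tested 11 fell, 3 rose, the deleted gene Dbi among them, and 14 did not pass. With library totals alone 6 were lower and 7 higher, and the median of -0.11 became 0.15. Acsl3, an acyl-CoA synthetase of lipid droplets, was 64.7, 68.1 and 52.8 CPM on chow and 21.0, 21.6, 27.8, 26.4 and 39.6 CPM on HFD, a log2 fold change of -1.18 ± 0.18. Acsl4 fell by 0.50, Acsl5 by 1.36 and the thioesterase Acot1 by 1.90 on the log2 scale, whereas the thioesterase Acot9 rose by 0.59. Acsl1 did not pass (-0.10). Dbi itself, the deleted gene, was 88.3, 100 and 103 CPM in chow knockout and 126, 121, 111, 165 and 118 CPM in HFD knockout libraries, against means of 1022 ± 64.6 (SD, n = 4) in chow and 701 ± 55.6 CPM (SD, n = 5) in HFD wild-type. The residual Dbi signal therefore rose by 0.40 ± 0.11 (adjusted p = 0.0165, edgeR) in the knockout. The call was lost with HFD knockout 2, 4 and 5 left out, with chow knockout 2 left out, and with the run term. Which cells carry the remaining transcripts was not tested.

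Of 26 genes of fatty acid oxidation and ketone use 4 rose and 1 fell, against 13 higher and 0 lower with library totals alone (median 0.42). In the main fit, calls in either direction were 19.2% of these members, against 25.8% of all genes tested. The median of 0.16 turned to -0.03 without the 3 muscle-rich HFD libraries, when 1 member was called higher. Cpt1a, which admits long-chain acyl groups to mitochondria, was 7.93, 9.05 and 8.52 CPM on chow and 20.3, 14.6, 20.8, 16.2 and 21.2 CPM on HFD, a log2 fold change of 1.13 ± 0.18 (adjusted p = 0.000327, edgeR). Ucp3, a mitochondrial carrier related to Ucp1, fell by 0.67 (log2), a call lost without chow knockout 3, chow knockout 4, HFD knockout 3, or the liver-rich or muscle-rich libraries, with library totals alone and with the run term. Over all genes tested 13.1% were called lower. Of 36 complex I genes 8 fell (22.2%) and none rose, with a median of -0.19. Of 42 genes of complexes II to V 6 fell (14.3%), near the share of all genes, and none rose, with a median of -0.07. With library totals alone these medians were 0.08 and 0.19, with 5 and 7 genes called higher and 2 and 1 lower. In wild-type, 27 complex I genes and 24 genes of complexes II to V were called lower, and none of these genes passed the test of a difference between genotypes. Cox6c, a subunit of cytochrome c oxidase, was 829, 693 and 773 CPM on chow and 395, 444, 379, 458 and 443 CPM on HFD, a log2 fold change of -0.85 ± 0.10 with no overlap. Of the 13 protein genes of mitochondrial DNA 7 fell and 1 rose (median -0.56), and reads of these genes may be shared with copies of them in the nuclear genome.

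Transcripts of glucose handling and insulin signalling genes also shifted. Insulin receptor substrate Irs1 was 102, 101 and 107 CPM on chow and 37.2, 48.3, 31.0, 45.7 and 42.8 CPM on HFD, a log2 fold change of -1.33 ± 0.16 (adjusted p = 3.99e-05, edgeR). Its chow libraries were nearly equal and its groups far apart. Irs2 (-1.75), Insr (-0.54), Foxo1 (-0.76), Akt2 (-0.22), the glucose transporter Slc2a4 (-0.41) and its traffic regulator Tbc1d4 (-0.70) fell as well. The receptor inhibitors Grb14 (1.19) and Grb10 (0.53) and the cytokine-signalling suppressor Socs3 (0.75) rose. Of 27 members 10 fell, 7 rose and 10 did not pass, and with library totals alone 6 were lower and 11 higher and the median of -0.09 became 0.19. Hexokinase Hk1 rose by 1.15 ± 0.21 and Idh2 by 0.79 on the log2 scale, while pyruvate carboxylase Pcx fell by 0.70 and the pyruvate carrier Mpc1 by 0.68.

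Stress genes of the cytosol rose together. Of 24 heat shock proteins and co-chaperones 14 rose, 2 fell and 8 did not pass, with a median of 0.66. Hspa1b, an inducible HSP70, was 16.8, 4.28 and 8.17 CPM on chow and 63.2, 70.8, 162, 114 and 183 CPM on HFD, a log2 fold change of 3.61 ± 0.71 (adjusted p = 0.00187, edgeR). Its near-identical neighbour Hspa1a gave 3.23 ± 0.71, and reads of the pair may be split between them. Hspb1, a small heat shock protein, was 54.9, 54.1 and 59.3 CPM on chow and 123, 110, 177, 143 and 190 CPM on HFD. The 3 chow libraries were close together and below all HFD libraries, with a log2 fold change of 1.41 ± 0.22. Cryab (2.16), Hsph1 (1.61), Dnajb1 (1.35), Dnaja1 (1.06) and Hsp90aa1 (1.01) rose too, whereas the mitochondrial chaperonin Hspe1 fell by 0.50. In wild-type the median was 0.06, with 6 of 24 higher and 3 lower, but no member passed the test of a difference between genotypes. With the muscle-rich libraries left out, 12 of 24 were higher. Of 27 immediate early genes 8 rose and none fell, 14 and none with library totals alone, among them Jund (1.33), Atf3 (2.67), Jun (1.08) and Myc (1.95). Atf3, a stress-induced factor, was 2.09, 1.60 and 1.33 CPM on chow and 9.20, 9.89, 13.0, 10.3 and 10.9 CPM on HFD. Of 30 genes of the unfolded protein and integrated stress responses 7 rose and 2 fell, so 30.0% were called, against 25.8% of all genes tested. In limma-voom 2 rose and 2 fell, and with library totals alone 16 rose and 1 fell. Phgdh of serine synthesis rose by 2.49 and the chaperone Dnajb9 fell by 0.90. The stress hormones Gdf15 and Fgf21 rose from very low levels, Gdf15 with a call lost in limma-voom (adjusted p = 0.274). Fgf21 was 0.344, 0.185 and 0.186 CPM on chow and 0.855, 0.910, 1.05, 0.605 and 0.412 CPM on HFD, a log2 fold change of 1.68 ± 0.43 (adjusted p = 0.0101, edgeR) whose call was lost in limma-voom, with the run term and without chow knockout 3 or 4. Haem oxygenase Hmox1 rose by 1.61 and the glutathione synthetase Gss by 1.12, while Gclm fell by 0.57.

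Immune genes were higher on HFD. Of 28 genes of macrophages, including those of lipid-loaded macrophages, 18 rose, 2 fell and 8 did not pass, with a median of 1.09, and limma-voom called 8 higher and 2 lower. The 11 markers used to follow macrophages summed to 84.3 to 108 CPM on chow and 106 to 218 CPM on HFD, with 7 called higher and 1 lower. C1qc, a complement subunit made by macrophages, was 7.47, 6.92 and 8.63 CPM on chow and 13.7, 16.4, 17.6, 11.4 and 21.1 CPM on HFD, a log2 fold change of 1.07 ± 0.22 (adjusted p = 0.00218, edgeR). Lgals3, a lectin of lipid-loaded macrophages, was 1.03, 1.71 and 1.68 CPM on chow and 9.63, 8.65, 14.5, 4.66 and 14.2 CPM on HFD, a log2 fold change of 2.81 ± 0.52. In both genes HFD knockout 4 was the lowest HFD library, and the groups did not overlap. Gpnmb (2.89), Trem2 (2.53), Itgax (2.25), Cd68 (1.69) and Adgre1 (1.299) rose, whereas Apoe fell by 0.88. Mmp12, an elastase of macrophages, had 1, 0 and 3 counts on chow and 265, 128, 470, 34 and 321 counts on HFD, and its call was lost in limma-voom (adjusted p = 0.246). Chemokines and acute-phase genes gave 10 rises and 2 drops in 28, but 3 and 2 in limma-voom. The 10 rises included Ccl2 (3.34), Cxcl1 (2.30), Cx3cl1 (1.32) and haptoglobin Hp (0.93), against drops of the acid glycoproteins Orm1 (-0.64) and Orm2 (-1.45).

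Genes of the mitotic cell cycle were low but higher on HFD throughout. All 30 tested had a log2 fold change above 0, 20 were called higher and none lower, and the median was 1.20. Without the muscle-rich libraries 16 were called, and in limma-voom 12. Cdk1, the kinase that starts mitosis, was 0.0983, 0.116 and 0.140 CPM on chow and 0.722, 0.477, 0.791, 0.327 and 1.11 CPM on HFD, a log2 fold change of 2.53 ± 0.42 (adjusted p = 0.000527, edgeR). Top2a was 0.688, 0.648 and 0.698 CPM on chow and 3.01, 2.41, 3.72, 1.19 and 5.81 CPM on HFD. For both genes HFD knockout 4 was the lowest and HFD knockout 5 the highest of the HFD libraries, and the groups did not overlap. Which cells carried these transcripts was not tested.

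Matrix genes moved upward, with 8 of 28 collagen and matrix genes and 10 of 25 proteases and inhibitors higher, and 2 and 1 lower. Lox, which cross-links collagen, was 26.7, 27.4 and 24.3 CPM on chow and 85.5, 83.8, 85.8, 53.2 and 43.5 CPM on HFD, a log2 fold change of 1.43 ± 0.22 (adjusted p = 0.000243, edgeR). Col18a1, a basement membrane collagen, rose by 1.68 and Sparc by 0.55. The fibrillar collagens Col1a1 (0.32) and Col3a1 (0.45) did not pass. Fibroblast and progenitor markers summed to 366 to 519 CPM on chow and 434 to 847 CPM on HFD, with 2 of 9 called higher, and their part in these results was not tested. In vessels, Angpt2 rose by 1.56 and Angpt1 fell by 1.13 (log2), a pair of ligands with opposed actions on the Tie2 receptor, and Pecam1 rose by 0.44. Among signals to nerves, S100b, a factor by which brown fat attracts sympathetic fibres, was 24.6, 19.8 and 16.2 CPM on chow and 114, 118, 120, 109 and 96.0 CPM on HFD. Its log2 fold change was 2.46 ± 0.15 (adjusted p = 1.97e-07, edgeR), and Nrg4, a factor secreted by brown fat, fell by 0.53.

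**Figure D3:**
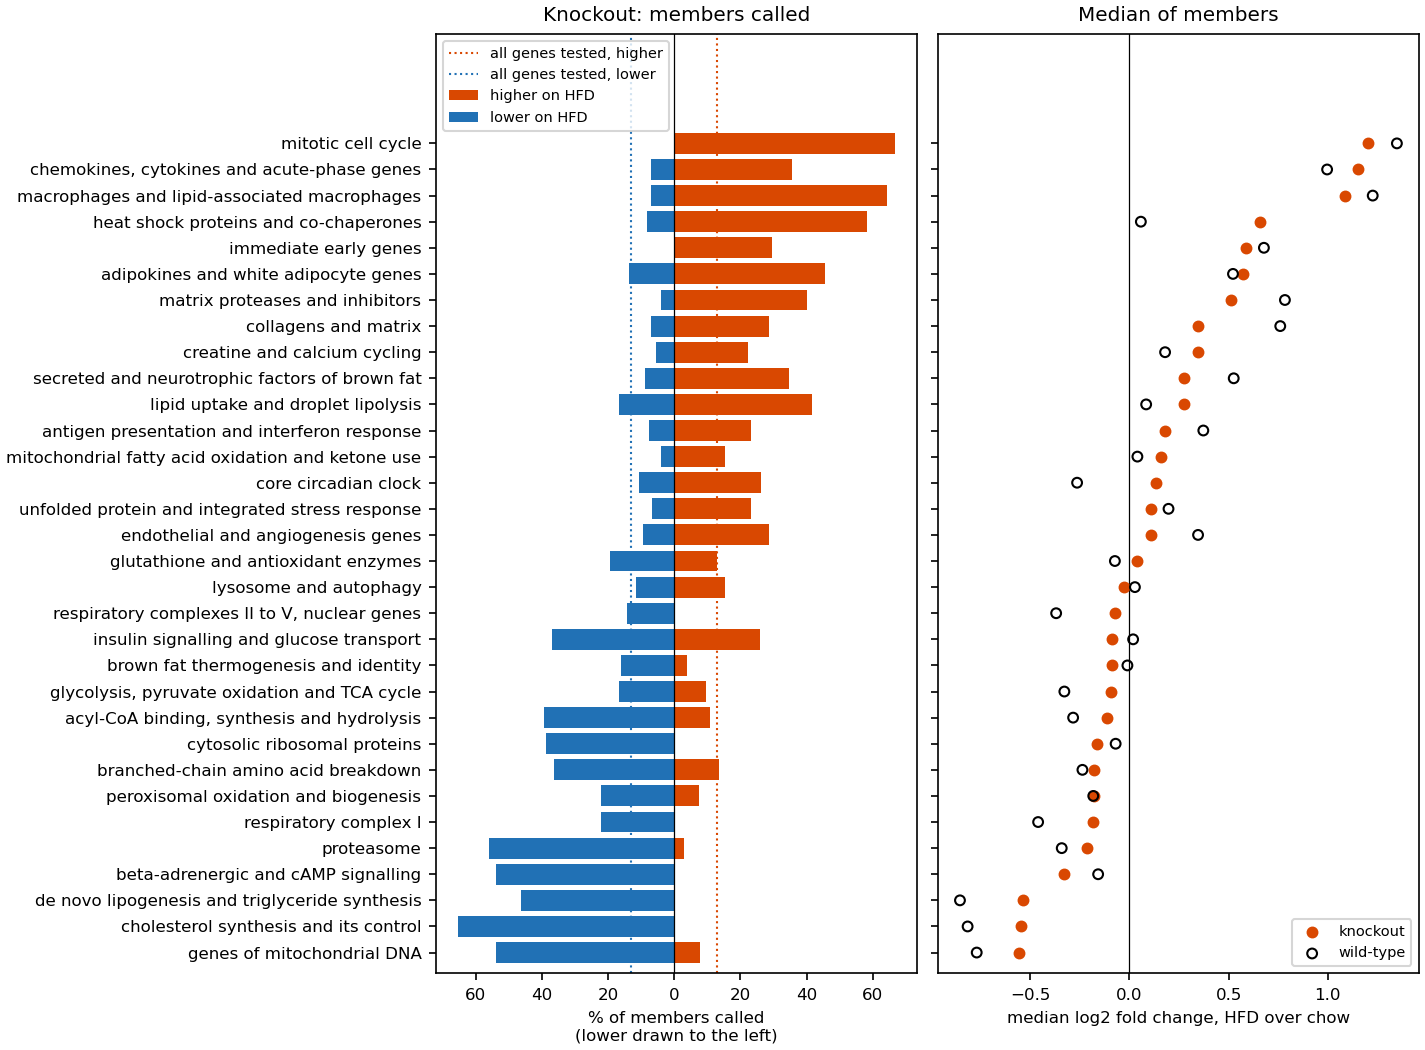
Left, percent of the tested members of 32 gene lists called higher (right of 0) or lower (left of 0) on HFD in the knockout, with dotted lines at the 12.8% and 13.1% of all genes tested; right, median log2 fold change of each list in the knockout (filled) and in wild-type (open). Mitotic, chemokine and macrophage genes have the highest medians, 1.20, 1.15 and 1.09, and mitochondrial DNA, cholesterol and lipogenic genes the lowest, -0.56, -0.55 and -0.54; with library totals alone 11 of the medians below 0 turn positive, those of the ribosome, proteasome and respiratory complexes among them.

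Housekeeping complexes were lower by small amounts. Of 34 proteasome genes 19 fell and 1 rose (median -0.21), and of 49 cytosolic ribosomal protein genes 19 fell and none rose (median -0.16). Both medians turned positive with library totals alone, at 0.05 and 0.10, with 4 proteasome genes higher and 4 lower and 3 ribosomal genes higher and 1 lower, so the direction of these lists depends on the scaling. Bhlhe41, a repressor of the clock, was 4.47, 3.63 and 4.70 CPM on chow and 10.9, 16.6, 13.95, 14.2 and 14.1 CPM on HFD, a log2 fold change of 1.71 ± 0.22. Npas2, a partner of Bmal1, was 4.74, 6.94 and 4.91 CPM on chow and 1.62, 1.11, 0.636, 1.14 and 0.897 CPM on HFD, a log2 fold change of -2.35 ± 0.38. Per2 (1.78), Hlf (1.20), Cry2 (0.78) and Nfil3 (0.71) rose and Clock fell by 0.29, so 5 of 19 clock genes rose and 2 fell, against 8 and 1 with library totals alone. Calls in either direction were 36.8% of the clock genes, against 25.8% of all genes tested. Their median was 0.13 in the knockout and -0.26 in wild-type, where 2 were higher and 5 lower. No clock gene passed the test of a difference between genotypes. Arntl (-0.01), Nr1d1 (0.02) and Per1 (0.13) did not pass. Clock genes move with the hour of the day, and that hour is unknown here.

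The remaining large drops fell in several functions. Hcar1, the lactate receptor of adipocytes that restrains lipolysis, was 48.9, 51.2 and 46.4 CPM on chow and 13.2, 7.28, 4.16, 8.37 and 7.34 CPM on HFD, a log2 fold change of -2.60 ± 0.34 (adjusted p = 6.57e-05, edgeR). Irf4, a transcription factor of fasting and cold in fat, was 25.1, 28.5 and 30.9 CPM on chow and 3.75, 4.13, 5.24, 6.42 and 8.29 CPM on HFD, a log2 fold change of -2.34 ± 0.39. Gpx8, a peroxidase of the endoplasmic reticulum, was 66.4, 69.7 and 93.9 CPM on chow and 13.8, 13.0, 9.12, 14.2 and 16.6 CPM on HFD. Its log2 fold change of -2.52 ± 0.14 had an adjusted p of 6.41e-08 in edgeR. In all 3 genes the HFD libraries lay far below the chow libraries. The kinase Pim1 fell by 2.29, the melanocortin receptor Mc5r by 2.26, the matrix protein Svep1 by 2.26, the transcription factor Mycl by 2.34 and B3galt2 by 2.22 (log2). The tight junction genes Cldn1 (-3.49) and Tjp3 (-2.57) fell as well. Cldn1 was 3.54, 10.2 and 14.7 CPM on chow and 0.722, 0.881, 0.388, 0.736 and 1.45 CPM on HFD. The mesothelial marker Lrrn4 was 5.26, 5.3005 and 4.03 CPM on chow and 0.781, 0.939, 0.806, 1.32 and 1.56 CPM on HFD, and its part in the drop of epithelial genes was not tested. The other mesothelial markers (Wt1, Upk3b, Krt19 and Msln) were at or near 0 on both diets and did not pass the count filter.

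Promoters of 3 lists that moved together are shown for a pair of members each, as RefSeq gives the 250 bases before the gene start on GRCm38.p6, written 5′ to 3′ on the gene's strand. Each pair was taken, by smallest adjusted p, from called members whose window holds the marked letters, so the matches shown were fixed by the choice. The count files use GRCm39, so these positions are those of the promoter table only. Capitals mark matches, on either strand, to GAANNTTC or TTCNNGAA, the spaced units of a heat shock element, in the heat shock genes Dnajb4 and Hspb1.
Dnajb4 (chr3:152193846-152194095, minus strand): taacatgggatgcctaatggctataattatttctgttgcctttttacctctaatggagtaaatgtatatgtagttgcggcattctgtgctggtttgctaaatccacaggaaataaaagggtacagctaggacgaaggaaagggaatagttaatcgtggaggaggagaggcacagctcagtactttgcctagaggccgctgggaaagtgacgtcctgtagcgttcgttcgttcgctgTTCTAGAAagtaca
Hspb1 (chr5:135887669-135887918, plus strand): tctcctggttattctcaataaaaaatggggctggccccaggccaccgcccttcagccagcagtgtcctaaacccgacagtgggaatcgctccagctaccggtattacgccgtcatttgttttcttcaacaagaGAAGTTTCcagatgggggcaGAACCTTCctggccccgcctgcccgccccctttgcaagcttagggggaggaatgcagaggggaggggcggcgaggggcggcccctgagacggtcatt
Capitals in the cholesterol genes Cyp51 and Insig1 mark CCAAT, the box bound by NF-Y, which reads ATTGG on the other strand.
Cyp51 (chr5:4104698-4104947, minus strand): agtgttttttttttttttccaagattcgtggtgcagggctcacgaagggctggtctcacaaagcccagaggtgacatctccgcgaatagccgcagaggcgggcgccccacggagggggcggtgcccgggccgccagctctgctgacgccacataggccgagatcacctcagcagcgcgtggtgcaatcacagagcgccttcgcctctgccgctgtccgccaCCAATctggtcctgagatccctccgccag
Insig1 (chr5:28071162-28071411, plus strand): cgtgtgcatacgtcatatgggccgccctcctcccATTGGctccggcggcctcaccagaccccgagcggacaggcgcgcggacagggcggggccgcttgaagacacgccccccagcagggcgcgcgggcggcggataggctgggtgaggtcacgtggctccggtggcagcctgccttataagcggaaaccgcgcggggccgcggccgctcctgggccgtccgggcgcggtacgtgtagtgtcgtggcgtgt
Capitals in the cAMP-induced genes Nr4a3 and Nr4a2 mark TGACG, the core shared by cAMP response elements, or its reverse CGTCA.
Nr4a3 (chr4:48045055-48045304, plus strand): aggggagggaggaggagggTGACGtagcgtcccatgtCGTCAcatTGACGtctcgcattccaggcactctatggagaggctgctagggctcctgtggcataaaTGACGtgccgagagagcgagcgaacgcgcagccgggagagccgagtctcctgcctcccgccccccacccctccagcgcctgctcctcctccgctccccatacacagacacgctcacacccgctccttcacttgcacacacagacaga
Nr4a2 (chr2:57124004-57124253, minus strand): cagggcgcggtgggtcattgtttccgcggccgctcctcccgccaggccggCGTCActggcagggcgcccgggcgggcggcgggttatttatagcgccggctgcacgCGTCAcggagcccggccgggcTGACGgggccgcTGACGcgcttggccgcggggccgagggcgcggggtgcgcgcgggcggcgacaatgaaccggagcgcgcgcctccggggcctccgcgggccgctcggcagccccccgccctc

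Windows were held for 18 of 24 heat shock, 19 of 26 cholesterol and 19 of 26 cAMP genes. The 2-unit heat shock letters were in 6 of 11 called heat shock genes with a window (Dnaja1, Dnajb4, Hspa1a, Hspa1b, Hspb1 and Hsph1) and 3 of 7 others, against 14.5% of 27025 symbols. CCAAT was in 11 of 12 called cholesterol genes and 6 of 7 others, against 37.5%. TGACG was in 6 of 9 called cAMP genes (Nr4a1, Nr4a2, Nr4a3, Prkacb, Prkar1a and Rgs2) and 4 of 10 others, against 19.8%. These short forms were chosen after longer ones had been searched. The longer ones were a heat shock element of 3 units (0.514% of symbols), TCACNCCAC (1.22%) and TGACGTCA (1.77%), which matched 0 of 11, 0 of 12 and 1 of 9 called members. Among the other members they matched 2 of 7 (Hspd1 and Hspe1), 1 of 7 (Hmgcs1) and 0 of 10. Called here means higher on HFD for heat shock genes and lower for cholesterol and cAMP genes, so the others include Hspe1, which fell. TGACGTCA contains TGACG, and the longer heat shock element contains both 2-unit forms. A match describes letters in the window and does not show a site in use.

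The diet effect in the knockout was set beside that in wild-type, which used other libraries and the same diets. In wild-type 2986 genes (16.9%) were higher and 2699 (15.2%) lower on HFD. Of the knockout calls 66.5% were called the same way in wild-type, which is 53.6% of the wild-type calls, and 18 genes were called in opposite directions. Over the 17717 genes the fold changes of the genotypes had a Pearson r of 0.66 and a Spearman rho of 0.68, a description over genes that are not independent and that share the gap in library runs between diets. The test of the difference itself called 16 genes (0.0903%), and 1837 had an unadjusted p under 0.05. This count was 1 with the replicate number as a block, 0 without the muscle-rich libraries and 196 with DESeq2, so it is weakly determined.

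**Figure D4:**
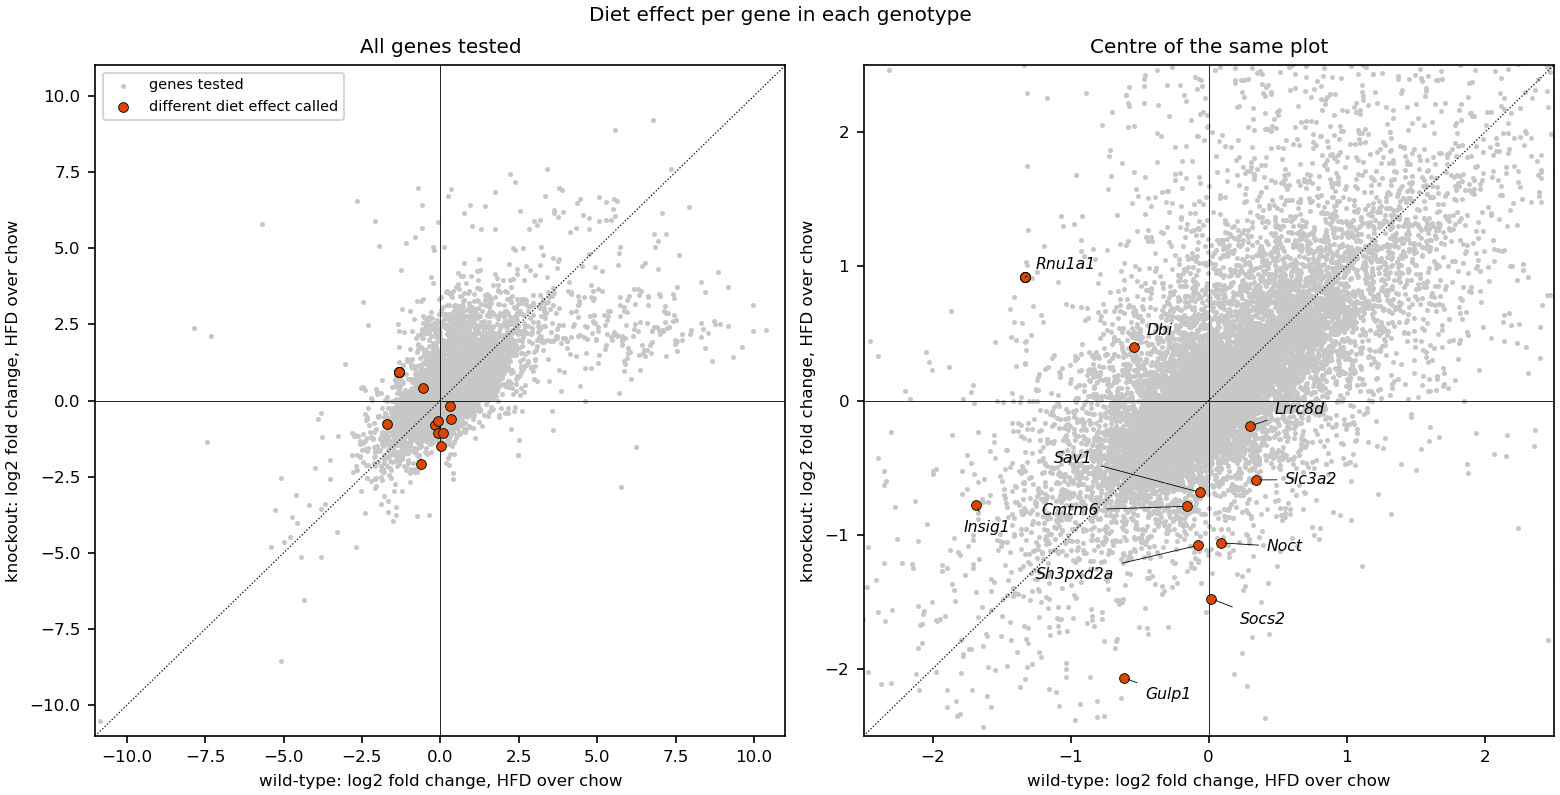
Log2 fold change of HFD over chow in the knockout against that in wild-type for the 17717 genes tested (grey; left, all; right, the centre), with the 16 genes whose diet effect differed in orange and the dotted line marking equal effects. Socs2, Noct and Sh3pxd2a lie near 0 in wild-type and at -1.48, -1.06 and -1.08 in the knockout, and Dbi and Rnu1a1 lie above 0 in the knockout and below 0 in wild-type.

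For most protein-coding genes among the 16, the chow knockout libraries stood apart. Cmtm6, which stabilises the checkpoint ligand PD-L1, was 50.2, 48.1 and 51.0 CPM in chow knockout and 30.9, 26.7, 27.3, 27.3 and 31.9 CPM in HFD knockout libraries, beside means of 34.6 ± 1.86 (SD, n = 4) in chow and 31.0 ± 1.39 CPM (SD, n = 5) in HFD wild-type. The diet effect was -0.79 in the knockout and -0.16 in wild-type, a difference of -0.63 ± 0.09 (adjusted p = 0.0377, edgeR). Socs2, which restrains growth hormone signalling, was 8.01, 9.30 and 7.33 CPM in chow knockout and 3.07, 2.66, 3.13, 2.697 and 3.19 CPM in HFD knockout libraries, beside wild-type means of 3.57 ± 1.06 and 3.61 ± 0.37 CPM. Sh3pxd2a, an adaptor of invadopodia, Gulp1, an adaptor for engulfing dead cells, Noct, a clock-controlled phosphatase, and Sav1, a Hippo pathway scaffold, had the same layout, with differences of -1.004, -1.46, -1.15 and -0.62. Slc3a2, the heavy chain of amino acid transporters, was 63.7, 61.6 and 63.8 CPM in chow knockout and 35.9, 36.7, 44.0, 42.9 and 49.6 CPM in HFD knockout libraries. It fell by 0.59 in the knockout and was 0.34 higher in wild-type, a difference of -0.93 ± 0.16 (adjusted p = 0.0388, edgeR).

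Insig1 and Dbi differed in another layout. Insig1, the sterol sensor that holds SREBP factors in the endoplasmic reticulum, was 556, 709 and 542 CPM in chow knockout and 329, 341, 413, 345 and 329 CPM in HFD knockout libraries. Its drop of 0.78 ± 0.11 in the knockout compares with a fold change of -1.69 in wild-type, a difference of 0.91 ± 0.15 (adjusted p = 0.0377, edgeR), and here the HFD wild-type libraries were the low ones at 192 ± 21.3 CPM (SD, n = 5). Dbi differed by 0.94 ± 0.15, on the small remainder described above. Lrrc8d, a subunit of the volume-regulated anion channel, had diet effects of -0.19 in the knockout and 0.30 in wild-type, and its knockout value changed sign to 0.08 with library totals alone. Rnu1a1 and 5 other copies of U1 small nuclear RNA carry identical counts and so stand for 1 measurement, with diet effects of 0.92 in the knockout and -1.33 in wild-type. Over 29 alternatives each of the 16 kept the direction of its difference, but no gene was called in more than 18 of them.

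**Figure D5:**
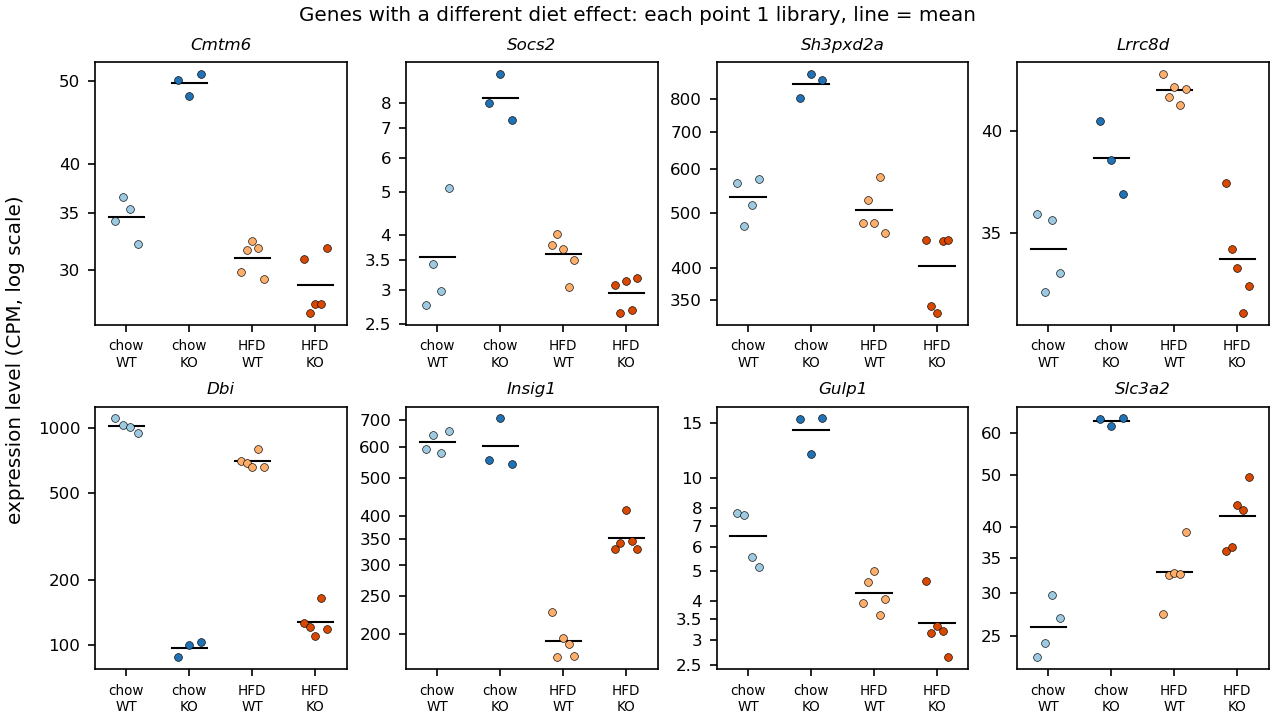
Expression level (CPM, log axis) of 8 genes with a different diet effect in the 4 groups, each point 1 library and each line a group mean. Cmtm6, Socs2, Sh3pxd2a, Gulp1 and Slc3a2 are highest in chow knockout, Insig1 is lowest in HFD wild-type at 192 CPM, and Lrrc8d, whose knockout change reverses with library totals alone, is highest in HFD wild-type.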

How the data were processed

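RNA-seq of brown adipose tissue was analysed from the authors' deposited table of counts per gene, whole numbers that may be rounded estimates. Build GRCm39, RSEM 1.3.0 and STAR 2.7.8a are listed in the submitters' processing notes, beside FastQC and DESeq. Groups came from the sample titles. Of 55414 genes, 17717 passed the filterByExpr filter of edgeR 4.0.16 (R 4.3.3). All 17 libraries entered 1 TMM-scaled quasi-likelihood fit by group, with contrasts for diet in each genotype and for their difference, and Benjamini-Hochberg adjustment over all genes tested. Alternatives used limma 3.58.1 (voom), DESeq2 1.42.0, other scalings, filters and left-out libraries. In tests on simulated data the diet contrast in the knockout recovered 43.3%, 80.6% and 98.5% of genes changed 1.5-, 2- and 4-fold among 17717 genes, with 8 false calls. Only 67, 67 and 66 genes were changed, all with a mean of at least 1 CPM. The simulated counts held no muscle or liver transcripts varying between libraries and no effect of library runs. These figures therefore do not give the recovery or the false calls of the real data.

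The members and lists were chosen with earlier results of these data known. Genes named were 10 fixed genes, the 12 largest rises and 12 largest drops with a mean of at least 5 CPM and groups that do not overlap, up to 4 members per list with the smallest adjusted p, and up to 8 genes with a different diet effect. Other list members in the text were added as examples after their values were seen, and alternatives were not tabulated for them singly. Replicate numbers 2, 3 and 4 occur in both knockout groups. Deviations of same-numbered libraries over 12485 genes had correlations of 0.222, 0.573 and 0.444. Chow knockout 3 correlated more with HFD knockout 1 (0.751), and chow knockout 4 more with HFD knockout 2 (0.664) and HFD knockout 5 (0.548). These values do not show that the numbers pair the libraries. The main fit used no pairing, and the replicate block is given only as an alternative. Results for some genes are not reported here.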

Additional observations from a re-analysis of the deposited data

Results flagged for a closer look

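Within the 5 HFD knockout libraries, Dixon's test at the 95% level set 1 library apart from the other 4 in 8 of the 153 genes named by rule. Chance alone sets apart about 1 in 20 groups, and 8 of 153 is near that share. These were HFD knockout 3 for Angpt2 (3.26 CPM) and Insig1 (413 CPM), HFD knockout 1 for Cd36 (1499 CPM) and Phgdh (13.5 CPM), HFD knockout 2 for Kcnj15 (24.1 CPM), and HFD knockout 5 for Gpihbp1 (29.3 CPM), Nr4a2 (7.73 CPM) and Nr4a3 (15.5 CPM).

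The diet effect differed between genotypes, by the edgeR test of the difference, in 16 genes. The log2 diet effect in the knockout minus that in wild-type was -0.63 for Cmtm6, -1.50 for Socs2, -1.004 for Sh3pxd2a, -0.49 for Lrrc8d, -1.46 for Gulp1, -0.93 for Slc3a2, -1.15 for Noct and -0.62 for Sav1. It was 0.94 for Dbi and 0.91 for Insig1. Rnu1a1, Gm22068, Gm25679, Gm26444, Gm24305 and Gm22317 share 1 set of counts and a difference of 2.25.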

How the results depend on the processing

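The counts of 2260 higher and 2319 lower genes moved by over 1.5 times with library totals alone (5322 and 553) and with the run of library numbers as a term within HFD (741 and 571), where HFD knockout 1 alone links the runs. Without the muscle-rich HFD libraries 1429 were lower. Leaving out 1 library at a time gave 1511 to 2227 higher and 1607 to 2228 lower. With the replicate block, 1871 were higher and 1850 lower.

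The 16 genes with a different diet effect became 196 with DESeq2, 63 with library totals, 10 with limma-voom, 1 with the replicate block, 10 without the liver-rich libraries, and 0 without the muscle-rich libraries, with muscle and liver scores as covariates or with the run term. Leaving out 1 library at a time gave 0 to 33. The count was 0 without chow wild-type 2, chow knockout 2, chow knockout 4, HFD wild-type 2 or HFD knockout 2, 1 without chow knockout 3 or HFD knockout 4, 6 without chow wild-type 1 or HFD wild-type 1, and 33 without HFD knockout 5. The cause was not tested.

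Log2 fold changes changed sign for Elovl3 with the run term (-0.25), Lrrc8d with library totals (0.079), and Ucp1 with library totals (0.20) and without HFD knockout 2 (0.0036). Leaving out 1 library at a time gave -0.21 to 0.0036 for Ucp1. Over the 153 genes named by rule, 3116 recomputed values kept direction and side of the threshold, 89 lost the call, 4 gained it and 4 changed sign. Genes near 0 counts on chow, such as Car12, are limited by depth.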
